A study of Gallus gallus with 4 samples.

Results

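Combined identifiers are entries of the exon annotation that join genes with overlapping exons on the same strand. They carry the names of all their genes linked by a plus sign. The 256 combined identifiers described here held 5591 exon parts, out of 344 combined identifiers and of 220717 exon parts under 24513 identifiers in all. They were chosen in 3 steps. The 19 combined identifiers on the mitochondrial genome and on chromosomes Z and W were left out, then 20 that the study had named in its tables, directly or through 1 of their genes, and then 49 more that appeared in the deposited list of exons called by the authors for differential usage. That last step selected on the difference between ethanol and saline, so each ethanol and saline value below is a description of identifiers that had not entered the list, and nothing is concluded from it.

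The material was cranial headfolds of chick embryos (Gallus gallus, strain Special black) that had been incubated for 27 hr and then given either 0.43 mmol ethanol or isotonic saline. Headfolds were pooled, 23 to a sample, and mRNA was taken on poly-T beads, primed with random hexamers and sequenced from both ends. The ethanol group had lanes 5 and 6 of a sequencing run and the saline group lanes 6 and 7 of another, so that the effects of treatment and of the run cannot be told apart. The labels give only lanes, and do not say whether 2 lanes of a treatment came from 2 pools. The study presents the normalized counts of each group as those of 2 pooled samples.

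Genes that share stretches of one strand occur in vertebrate genomes, and 344 of the 24513 identifiers here were combined. Neighbours may share a first or last exon, read-through transcripts may join the exons of adjacent genes, and incomplete annotation may list fragments of a single gene as several. For counting by exon, the annotation is cut at each exon boundary of each transcript, and the pieces, the exon parts, are numbered along the chromosome. A piece that belongs to several genes cannot be given to one of them, so counts of a combined identifier are sums over its genes, and every value below is uncertain as to which gene it came from.

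The ethanol lanes held 15388474 and 16991925 counts, and the saline lanes held 20951322 and 20861872. The mitochondrial genome took 33.3% and 32.9% of the counts in the ethanol lanes, and 44.2% of the counts in each saline lane. Levels are therefore given as CPM off the mitochondrial genome (counts scaled so that those off the mitochondrial genome sum to 1000000), and the level of an identifier is this value per kilobase of its exon parts. The saline lanes differed from each other by little more than sampling noise (chi-square per degree of freedom 1.04) and were summed to 1 library, while the ethanol lanes differed by more (5.68) and were kept apart. The files do not pair these identifiers with gene names and none of them matched the gene table at hand, so members are given by identifier and position in Gallus gallus 5.0, without a role, and the tissue could not be checked against marker genes.

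Most combined identifiers joined a pair of genes. Of the 256, 241 joined 2 genes, 12 joined 3 and 3 joined 4, and they lay on the plus strand in 138 cases and on the minus strand in 118. They were larger entries than single-gene identifiers off the mitochondrial genome, Z and W (22797 identifiers). This follows in part from their definition, since joining genes adds up their parts and cuts shared exons into pieces. The median combined identifier had 19 exon parts (2 to 111), against 6 for a single-gene identifier, 3729 bases of exon parts against 1410, and a span of 14818 bases against 5378. Its parts fell into a median of 13 blocks, runs of parts that touch each other, against 5 blocks. The number of parts per block was 1.33, against 1. Single-gene identifiers with 2 or more parts had medians of 7 parts, 1568 bases of exon parts and a span of 6986 bases. Among the combined identifiers left out by the rule (88, those on the mitochondrial genome, Z and W included), the median was 28 parts and 5870.5 bases, above the ones kept.

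**Figure D1:**
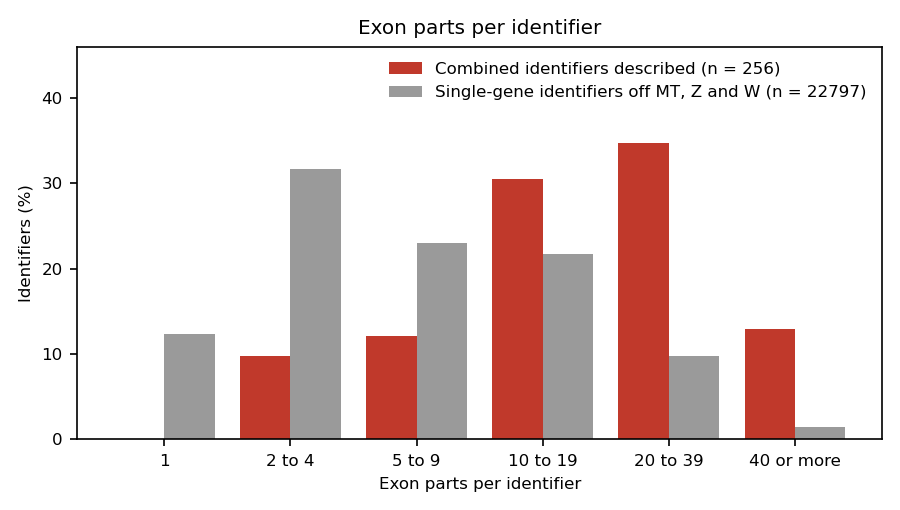
Share of identifiers (%, vertical axis) by number of exon parts (horizontal axis), for the 256 combined identifiers described and for 22797 single-gene identifiers off the mitochondrial genome, Z and W. Combined identifiers with 20 to 39 parts made up 34.8%, against 9.72% of single-gene identifiers, and no combined identifier had 1 part.

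They were spread over the genome. Of the 256, 212 lay on numbered chromosomes and 44 (17.2%) on scaffolds that are not placed on a chromosome, where 24.8% of single-gene identifiers lay. Chromosome 1 held 19 of them, chromosome 4 held 18, and chromosomes 3 and 5 held 15 each. The counts did not follow these numbers. The 8 combined identifiers on chromosome 20 held 79669 counts over the 4 lanes, more than the 63416 counts of the 19 on chromosome 1, and the 4 on chromosome 33 held 44800.

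The exon parts of combined identifiers were short and often touched a neighbour. Their median length was 116 bases (122 for all parts), and 1544 of them (27.6%) were shorter than the 75 bases of a read, against 23.3% of all parts. A part abutted another part of its identifier with no base between them in 35.4% of cases, against 20.5% of all parts. The median gap between neighbouring parts that did not touch was 485.5 bases, against 750 bases. Only 55 parts overlapped a part of another identifier, all of them on the opposite strand, and these parts belonged to 28 combined identifiers. The counting had disregarded strand. The 24 parts covered over their whole length by a part on the other strand were all at 0 counts in all 4 lanes, as were 1545 of the 1605 such parts (96.3%) over all identifiers, and the others held counts. In all, 1368 parts (24.5%) had no count in any lane, and 2562 had at least 10 counts over the lanes.

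Counts per base followed the length of a part, and their median differed between parts that abutted a neighbour and parts that stood alone. In combined identifiers with at least 500 counts, parts under 75 bases had a median of 14.7 counts per kilobase over the 4 lanes, and 48.7% of them were at 0. The median was 124 counts per kilobase for parts of 75 up to 150 bases, 229 for parts of 150 up to 300 bases and 551 for parts of 300 bases or more. The same order of lengths was seen over all identifiers, from 22.2 counts per kilobase for the shortest class to 987 for the longest. Parts that abutted a neighbour had a median of 37.0 counts per kilobase, and parts that stood alone had 145. With counts and bases pooled over parts the order turned round, to 1184 counts per kilobase in abutting parts and 852 in those standing alone. Of the abutting parts 36.0% were at 0, against 8.04% of those standing alone. Only read pairs with both ends mapped had been counted. The methods of the study do not say how a pair that touches several parts was counted. How far these rules of counting shaped the differences by length and by abutting was not tested, so the differences are not read as differences between transcripts.

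**Figure D2:**
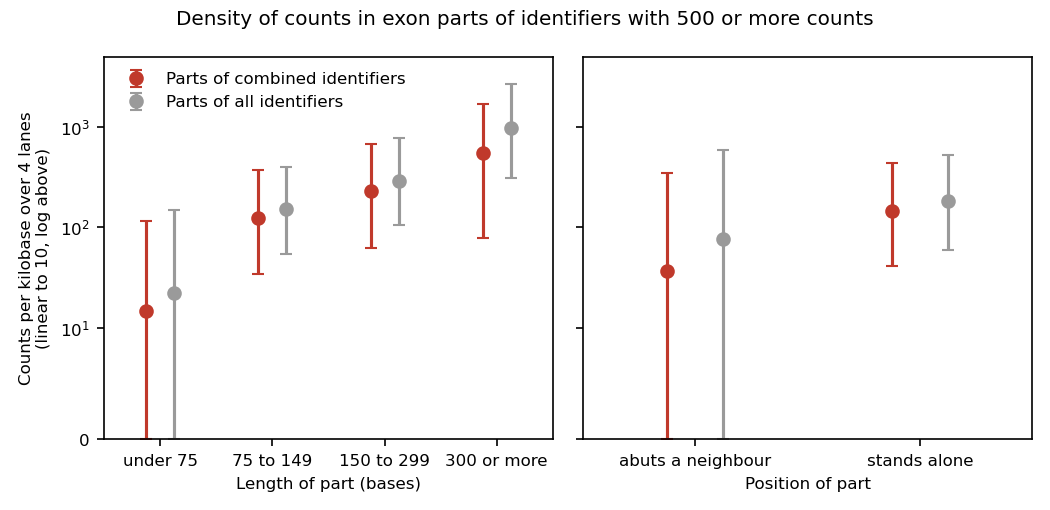
Counts per kilobase over the 4 lanes (vertical axis, linear up to 10 and logarithmic above) for exon parts of combined identifiers and of all identifiers with at least 500 counts, by length of the part (left) and by whether it abuts a neighbour (right). Points are medians and bars run from the first to the third quartile; in combined identifiers the median was 14.7 for parts under 75 bases and 551 for parts of 300 bases or more.

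The 256 combined identifiers held 900148 counts over the 4 lanes. They took 1.89% and 2.01% of the counts off the mitochondrial genome in the ethanol lanes (1.95 ± 0.0846, SD over 2 lanes), and 2.04% and 2.05% in the saline lanes (2.04 ± 0.0120). The ethanol lanes were below both saline lanes, and the ethanol minus saline difference of the means, -0.0938 percentage points, was in size close to the SD of the ethanol lanes. With the mitochondrial counts in the denominator the order turned round, at 1.26% and 1.35% in the ethanol lanes and 1.14% and 1.15% in the saline lanes. In pooled tissue, a smaller number of cells of a type and less RNA per cell cannot be told apart. Of the 256, 8 had no count in any lane and 18 had under 10 counts (7.03%, against 25.8% of single-gene identifiers). A further 57 had at least 10 but under 500 counts, and 181 had 500 or more. The counts were concentrated, with 29 identifiers holding 50% of them and the 10 with most counts holding 26.5%.

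The highest level was that of ENSGALG00000036837+ENSGALG00000033609, on chromosome 33 (1612235 to 1630086, plus strand), with 213 and 222 CPM per kilobase in the ethanol lanes and 269 in each saline lane. It joins 2 genes in 24 parts, and 81.3% of its counts fell in the last part, of 849 bases. ENSGALG00000029121+ENSGALG00000028520, on chromosome 3 (15591701 to 15594391, plus strand), had 183 and 185 in the ethanol lanes and 237 and 243 in the saline lanes. Both identifiers were lower in each ethanol lane than in each saline lane.

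ENSGALG00000026488+ENSGALG00000003966, on chromosome 19 (5802111 to 5804506, plus strand), had levels of 128 and 140 in the ethanol lanes and 176 and 185 in the saline lanes. It has 14 parts in 3 blocks, and 67.6% of its counts fell in a single part of 181 bases. ENSGALG00000037342+ENSGALG00000043425, on an unplaced scaffold (1692 to 11161, plus strand), had 106 and 122 in the ethanol lanes and 157 in each saline lane. Here too the ethanol lanes lay below the saline lanes, and 91.1% of the counts fell in the last part, of 1286 bases.

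The groups overlapped for 4 of the other abundant members. ENSGALG00000041030+ENSGALG00000030451, on chromosome 33 (836490 to 846320, plus strand), had levels of 122 and 138 in the ethanol lanes and 126 and 134 in the saline lanes. Its last part, of 174 bases, held 77.0% of its counts in ethanol and 84.1% in saline. ENSGALG00000037162+ENSGALG00000045555, on chromosome 8 (10398506 to 10414923, plus strand), had 103 and 92.2 in the ethanol lanes and 101 and 102 in the saline lanes. In it, too, the last part, of 1430 bases, held a smaller share in ethanol, 64.3% against 71.7% in saline, with 95% Wilson intervals of 63.4 to 65.3 and 70.9 to 72.6. These intervals cover counting error only.

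ENSGALG00000036787+ENSGALG00000041309, on chromosome 5 (21575864 to 21664803, plus strand), had levels of 102 and 93.3 in the ethanol lanes and 99.4 and 102 in the saline lanes. ENSGALG00000044813+ENSGALG00000008394, on chromosome 12 (19461508 to 19467213, plus strand), had 99.1 and 93.3 in the ethanol lanes and 99.0 and 100.1 in the saline lanes. ENSGALG00000020005+ENSGALG00000011483, on chromosome 3 (42972100 to 43003469, plus strand), had 115 and 109.9 in the ethanol lanes and 123 and 119 in the saline lanes. The groups overlapped in the first 2 of these 3, and in the third each ethanol lane was below each saline lane. ENSGALG00000040803+ENSGALG00000038166, on an unplaced scaffold (26 to 23353, plus strand), was the furthest apart in log2 change of the 10, with 66.9 and 83.4 in the ethanol lanes and 122 and 128 in the saline lanes.

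**Figure D3:**
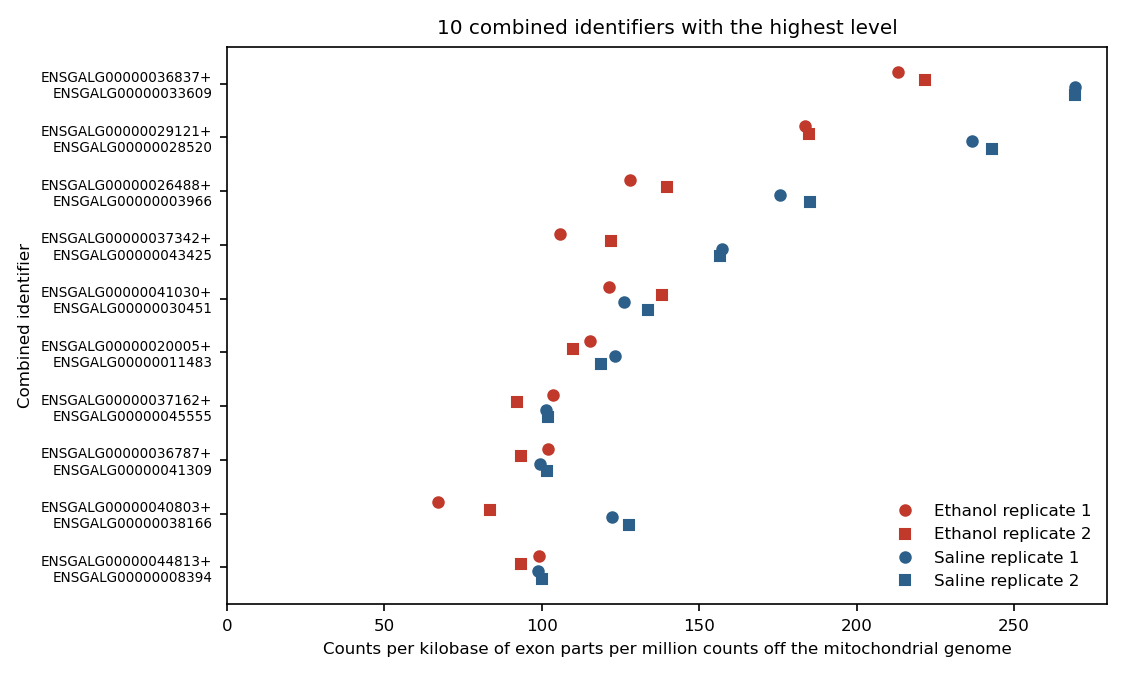
Level of the 10 combined identifiers with the highest mean level, ranked by CPM per kilobase over all counts (horizontal axis, CPM off the mitochondrial genome per kilobase of exon parts), each lane a point, ethanol in red and saline in blue. The top identifier sits at 213 and 222 in the ethanol lanes and at 269 in each saline lane, and ENSGALG00000040803+ENSGALG00000038166 sits at 66.9 and 83.4 in the ethanol lanes and at 122 and 128 in the saline lanes.

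The 3 members with the most parts were not among the abundant ones. ENSGALG00000039977+ENSGALG00000028612, on chromosome 18 (523331 to 688349, minus strand), has 111 parts and was close to silent, with 5 and 1 counts in the ethanol lanes and 4 and 3 in the saline lanes. ENSGALG00000029132+ENSGALG00000030563, on chromosome 21 (4585638 to 4655822, minus strand), has 109 parts over 18544 bases, with levels of 7.08 and 7.36 in the ethanol lanes and 6.57 and 6.62 in the saline lanes. Its part at the 3' end, of 3015 bases, held 40.7% of its counts in ethanol and 54.9% in saline. ENSGALG00000012407+ENSGALG00000026599, on chromosome 7 (32016417 to 32446623, minus strand), has 97 parts, with levels of 0.915 and 0.793 in the ethanol lanes and 0.387 and 0.487 in the saline lanes. It spans the most genome of the 256, and its ethanol lanes lay above its saline lanes.

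The 3 members that join 4 genes differed in how their counts were divided. ENSGALG00000000518+ENSGALG00000031175+ENSGALG00000000318+ENSGALG00000000436, on chromosome 26 (499824 to 772333, plus strand), has 48 parts, with levels of 20.5 and 26.3 in the ethanol lanes and 31.2 and 30.7 in the saline lanes. Its leading part, the part with the most counts, was part 14 in ethanol (27.8% of the counts) and part 48, the last, in saline (27.1%). ENSGALG00000042610+ENSGALG00000006641+ENSGALG00000045136+ENSGALG00000034995, on chromosome 10 (12944630 to 12953019, plus strand), had 25.6 and 26.2 in the ethanol lanes and 28.2 and 28.1 in the saline lanes, and part 25 of its 26 held 82.4% of the counts. ENSGALG00000022622+ENSGALG00000027925+ENSGALG00000025929+ENSGALG00000028908, on chromosome 2 (32646057 to 32690449, minus strand), had 3.70 and 3.66 in the ethanol lanes and 4.37 and 4.40 in the saline lanes. In this one part 2 held 71.0% of the counts, so that a single part held most counts in the last 2 identifiers and none did in the first.

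A single part dominated most combined identifiers. Over the members with counts, the leading part held a median of 57.8% of the counts (quartiles 39.2 and 76.2), against 72.4% in single-gene identifiers and 67.9% in those with 2 or more parts. These shares include identifiers with few counts. Members had medians of 1521 counts and 19 parts, and single-gene identifiers with 2 or more parts had 280 counts and 7 parts. The part of counts and of size in the difference was not tested. Among the 181 members with at least 500 counts, the leading part held over 50% in 107, was the longest part in 117, and was the last part at the 3' end in 79. It was the first part at the 5' end in none of the 181. Its median length was 923 bases (44 to 5818). In 161 of the 181 the same part led in ethanol and in saline, and in 20 a different part led. How often the leading part differed over all identifiers was not counted. How far the rules of counting, including that for pairs that touch several parts, shaped these shares was not tested.

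The 3 members with the highest leading share had the same layout. ENSGALG00000029658+ENSGALG00000037605, on an unplaced scaffold (5681 to 9784, minus strand), had 94.6% of its counts in 1 part of 2903 bases in ethanol and 96.8% in saline. ENSGALG00000034219+ENSGALG00000039914, on chromosome 16 (544838 to 551915, minus strand), had 96.0% in 1 part of 5818 bases in ethanol and 95.2% in saline. ENSGALG00000042295+ENSGALG00000041741, on an unplaced scaffold (4936 to 9877, plus strand), had 92.5% in 1 part of 3741 bases in ethanol and 97.6% in saline. All 3 have 5 parts in 3 blocks, with a 99 base part and a long part at the 3' end. The 2 on scaffolds also share a first part of 328 bases.

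The lowest leading shares were in identifiers cut into many parts. ENSGALG00000044375+ENSGALG00000012833, on chromosome 10 (20087394 to 20095144, plus strand), has 35 parts, and its leading part of 133 bases held 16.2% of the counts in ethanol and 10.8% in saline. ENSGALG00000035362+ENSGALG00000039329, on chromosome 21 (4390405 to 4404128, plus strand), has 32 parts, and the leading part held 15.1% in ethanol and 14.4% in saline. ENSGALG00000014607+ENSGALG00000044406+ENSGALG00000040017, on chromosome 27 (4622928 to 4775528, plus strand), has 41 parts, and the leading part held 16.2% in ethanol and 16.7% in saline. None of these leading parts was longer than 259 bases.

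Counts of each identifier were compared between ethanol and saline with edgeR's quasi-likelihood test over all identifiers with at least 10 counts, with p-values adjusted by Benjamini-Hochberg and a threshold of 0.1. The spread in it comes from the 2 ethanol lanes, for which the labels do not give a pool. Where an ethanol lane is left out below, the spread comes from the saline lanes alone, which differed by little more than sampling noise. Where each lane is a library, the spread comes from the lanes of both groups. The numbers that pass in such fits rest on another spread and are not comparable with those of the 3 libraries. Of the 256 combined identifiers, 238 could be tested and 67 passed, 24 higher and 43 lower in ethanol. Over all 18093 identifiers tested, 27.3% passed, 15.6% higher and 11.7% lower. Since the members were selected on this contrast, nothing is read from these counts. The median log2 change (ethanol over saline) was -0.12 over the members and 0.01 over all identifiers. Above 0 were 92 of the 238 members and 9241 of the 18093 identifiers. These changes were scaled with TMM factors and the levels above to counts off the mitochondrial genome, so the 2 scales differ. The members that passed had log2 changes of 0.47 to 1.49 where higher and of -3.22 to -0.36 where lower. The change of -3.22 was that of a member with few counts (SE 1.11, mean log2 CPM -1.99). With library sizes alone, without TMM factors, the median over all identifiers moved to 0.36 and that over members to 0.23. Above 0 were then 177 of the 238 members and 14133 of the 18093 identifiers. The members that passed were then 81 higher and 6 lower (36.6% of members), against 39.9% higher and 3.33% lower over all identifiers (43.3%). DESeq2's Wald test called 30 members (12.6%) and 9.66% of all identifiers. With both saline lanes but a single ethanol lane, 110 of 236 members passed without ethanol replicate 1 (46.6%), where 39.9% of all identifiers did. Without ethanol replicate 2, 136 of 235 members passed (57.9%), and 45.3% of all identifiers did.

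Changes of single identifiers that passed reached -3.22 and 1.49 in members under 500 counts. Among members with at least 500 counts, changes ran from a log2 change of -1.03 to one of 1.35. The highest was that of ENSGALG00000035005+ENSGALG00000023806, on chromosome 19 (5278873 to 5301689, minus strand), with levels of 13.4 and 11.1 in the ethanol lanes and 4.27 and 4.76 in the saline lanes (log2 change 1.35, SE 0.22). ENSGALG00000039177+ENSGALG00000014281, on chromosome 4 (69455922 to 69475473, minus strand), followed with 5.35 and 4.19 in the ethanol lanes and 1.78 and 1.73 in the saline lanes (log2 change 1.34, SE 0.22). In both, each ethanol lane lay above each saline lane, and the same part led in both groups.

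Among members with at least 500 counts, the lowest was ENSGALG00000035863+ENSGALG00000045234, on an unplaced scaffold (65172 to 82484, minus strand). Its levels were 39.5 and 47.9 in the ethanol lanes and 83.2 and 84.7 in the saline lanes (log2 change -1.03, SE 0.17). Its 4 parts did not move together. Part 1, of 169 bases, had 131 and 173 counts in the ethanol lanes and 385 and 416 in the saline lanes, while part 3, of 291 bases, had 99 and 121 counts in the ethanol lanes and 108 and 102 in the saline lanes. The second lowest was ENSGALG00000040803+ENSGALG00000038166, described above among the abundant members (log2 change -0.83, SE 0.14). With TMM factors, the log2 changes of the 10 most abundant members all lay below 0, from this value up to -0.09, with SEs of 0.13 to 0.15. The levels are scaled otherwise, to counts off the mitochondrial genome. The member at -0.09, ENSGALG00000041030+ENSGALG00000030451, had levels of 122 and 138 in the ethanol lanes and 126 and 134 in the saline lanes. With library sizes alone, 5 of the 10 were above 0.

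**Figure D4:**
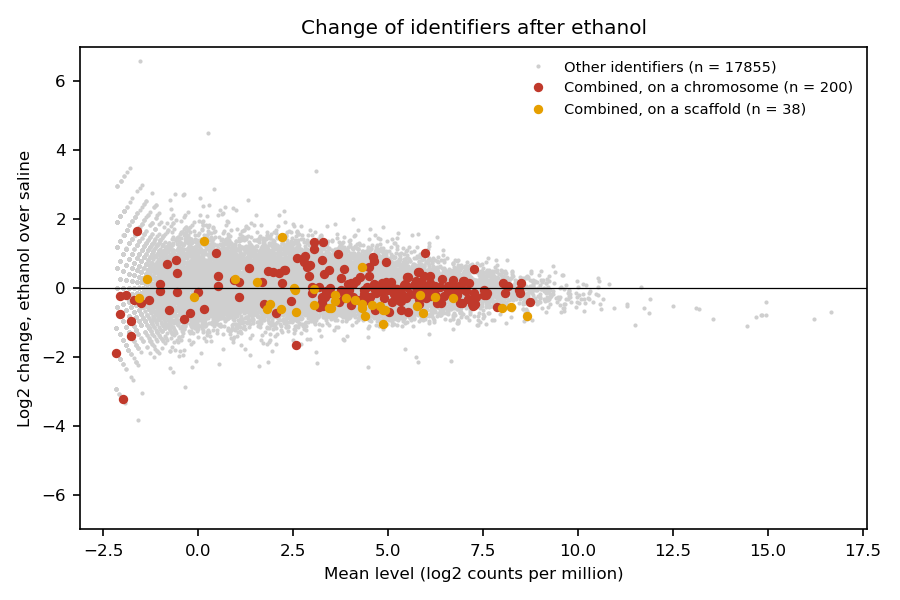
Log2 change of each identifier (vertical axis, ethanol over saline, edgeR with TMM) by its mean level (horizontal axis, log2 CPM), with the combined identifiers on chromosomes in red, those on unplaced scaffolds in orange and all other identifiers in grey. The 38 scaffold members have a median of -0.47 and the 200 on chromosomes a median of -0.06.

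Members on unplaced scaffolds were lower than members on chromosomes. The median log2 change was -0.47 over the 38 tested scaffold members (quartiles -0.59 and -0.19), with 3 higher (7.89%) and 19 lower (50%) past the threshold. It was -0.06 over the 200 on chromosomes (quartiles -0.29 and 0.18), with 21 higher (10.5%) and 24 lower (12%). Other identifiers off the mitochondrial genome, Z and W showed the same order, with a median of -0.25 over 3075 on scaffolds and 0.04 over 13919 on chromosomes. Past the threshold were 5.46% higher and 23.3% lower of those on scaffolds, and 17.5% higher and 9.15% lower of those on chromosomes. The difference in these shares between members and other identifiers was not tested. Scaffold members had a median of 12 parts and chromosome members 20, and the part of placement, size and level in the difference was not tested. By size, the median was -0.24 in members of 2 to 10 parts, -0.11 in those of 11 to 19, -0.09 in those of 20 to 39 and -0.05 in those of 40 or more. The 14 tested members that join 3 or 4 genes had a median of -0.22, and the 224 that join 2 genes one of -0.12.

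Exon usage, here the log2 change of a part less that of its whole identifier, was compared with edgeR's exon usage test. Of the 2549 member parts tested, 140 passed, 119 with higher and 21 with lower usage in ethanol. Over all 94274 parts tested, 4.87% passed, 4.36% higher and 0.511% lower. The median usage change was 0.24 over member parts and 0.21 over all parts tested, so this measure was not centred on 0. The rule left out identifiers with called exons in this very contrast, so again nothing is read from the counts. The 140 parts lay in 68 of 219 members with tested parts, up to 17 in a single member, and 36 members had 1 such part. How many of all identifiers had such a part was not counted. The number depends on the libraries and on the test. With an ethanol lane left out, the spread is that between the saline lanes. Without saline replicate 1 it was 69 (2.94% of the member parts tested, against 2.47% of all parts), and without saline replicate 2 it was 68 (2.89%, against 2.26%). Without ethanol replicate 1 it was 270 (11.6%, against 10.8%), and without ethanol replicate 2 it was 246 (10.9%, against 8.95%). In the model of DEXSeq the reference is the remaining parts and not the whole identifier, so its usage changes are another quantity. The model of DEXSeq called 15 with 3 libraries (0.588%, against 0.439%) and 88 with each lane as a library (3.45%, against 3.89%). With 3 libraries, 14 member parts were higher and 1 lower, and over all parts 256 were higher and 158 lower. With each lane as a library, 55 member parts were higher and 33 lower, and over all parts 1906 were higher and 1762 lower. A first version of that model, with its dispersion trend taken over a part and the other parts of its identifier together, called 0 of the members' parts and 0 of all parts, with 151 member parts at an unadjusted p under 0.05.

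The parts that passed are described by direction, with no test of the difference. Of the 21 with lower usage, 61.9% abutted a neighbour, against 12.6% of the 119 with higher usage and 27.1% of all member parts tested. The median length was 153 bases for the lower ones and 149 bases for the higher ones, close to the 150 bases of all tested. The lower ones had more counts, with a median of 190 over the 4 lanes, against 85 for the higher ones. In 10 members, parts passed in both directions. Of the 68 members with a part past the threshold in usage, 19 also passed at the level of the whole identifier and 49 did not. These counts of members were not made over all identifiers.

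Usage depended on the position in the identifier. When the parts of each identifier were divided by their order into 5 stretches from the 5' end, the median usage change of member parts was 0.34, 0.40, 0.32, 0.19 and 0.03 on the log2 scale in the stretches 1 to 5. Over all tested parts the medians were 0.38, 0.42, 0.40, 0.24 and -0.04. Parts towards the 5' end thus had higher usage in ethanol than parts of the 3' stretch, in combined identifiers as over all identifiers. The quartiles of the members ran from 0.01 to 0.79 in the first stretch and from -0.22 to 0.39 in the last, and overlapped.

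**Figure D5:**
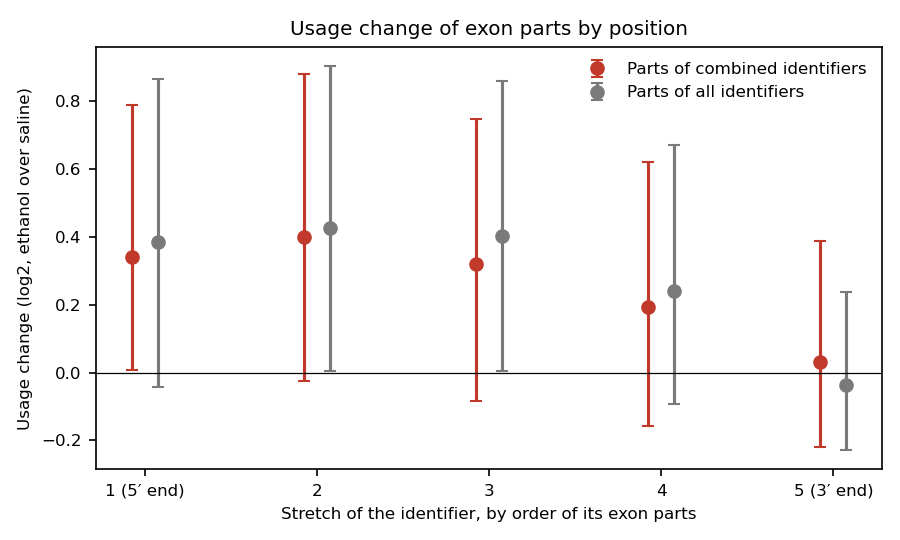
Median usage change of exon parts (vertical axis, log2, ethanol over saline) in 5 stretches of an identifier from its 5' end to its 3' end (horizontal axis), for parts of combined identifiers and of all identifiers, with bars from the first to the third quartile. The members' median is 0.34 in the first stretch and 0.03 in the last.

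The part with the smallest p among those with higher usage lay in ENSGALG00000027611+ENSGALG00000027961, on chromosome 28 (965935 to 974468, minus strand), which has 31 parts. Part 1, of 1739 bases at its 3' end (965935 to 967673), held 30.0% and 29.0% of the identifier's counts in the ethanol lanes and 10.1% and 9.54% in the saline lanes (usage log2 change 1.61, SE 0.26). The leading part 29, near the 5' end, held 47.8% of the counts in ethanol and 75.1% in saline. The level of the whole identifier was 7.67 and 9.93 in the ethanol lanes and 9.04 and 8.85 in the saline lanes, so the groups overlapped in the sum while its parts were divided otherwise. Part 1 also overlaps a part of another identifier on the opposite strand.

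In ENSGALG00000035378+ENSGALG00000004683, on chromosome 20 (9720725 to 9752383, minus strand), part 1 of 34, of 766 bases (9720725 to 9721490), held 5.62% and 5.89% of the counts in the ethanol lanes and 2.26% and 1.95% in the saline lanes (usage log2 change 1.45, SE 0.26). This part, too, lies at the 3' end. The leading part differed between the groups in this identifier. It was part 17 in ethanol, with 41.8% of the counts, and part 11 in saline, with 44.2%.

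The smallest p among parts with lower usage was that of part 28 of ENSGALG00000031853+ENSGALG00000004387+ENSGALG00000004435, on chromosome 10 (7931180 to 7999976, plus strand), which joins 3 genes in 39 parts. The part, of 280 bases (7969061 to 7969340), held 4.98% and 10.5% of the counts in the ethanol lanes and 15.4% and 15.5% in the saline lanes (usage log2 change -1.03, SE 0.24). Its ethanol lanes differed from each other by more than their 95% Wilson intervals, 4.05 to 6.11 and 9.10 to 12.1. In ENSGALG00000014656+ENSGALG00000043416, on chromosome 25 (2343395 to 2367573, minus strand), part 1 of 40, of 149 bases at the 3' end (2343395 to 2343543), held 5.09% and 5.56% of the counts in the ethanol lanes and 10.5% and 9.72% in the saline lanes (usage log2 change -0.92, SE 0.23). The ethanol lanes were close to each other here, and below both saline lanes. Without ethanol replicate 1 the usage log2 change of part 28 was -0.55, and without ethanol replicate 2 it was -1.62. Neither part with lower usage passed in the model of DEXSeq with 3 libraries, where the adjusted p (DESeq2's likelihood ratio test, Benjamini-Hochberg) was 0.217 for part 28 and 0.177 for part 1 of ENSGALG00000014656+ENSGALG00000043416.

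Exon parts were also compared by their own abundance, without reference to the identifier. Of 2562 member parts with at least 10 counts, 389 passed in edgeR's quasi-likelihood test, 98 higher and 291 lower in ethanol. Over all 98031 parts tested, 14.2% passed, 5.68% higher and 8.48% lower. With library sizes alone the split among members turned round, to 602 higher and 65 lower (26% of member parts), against 31% higher and 1.47% lower over all parts (32.5%). Without ethanol replicate 1 or without ethanol replicate 2 edgeR called 0 member parts and 0 of all parts, with 409 and 462 member parts at an unadjusted p under 0.05. DESeq2's Wald test on the 3 libraries called 125 member parts (4.88%) and 4.66% of all parts. Of the 2562 member parts, 1 had no count in either ethanol lane, and 2 had none in either saline lane. The same was not counted over all parts.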

How the data were processed

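The authors trimmed the reads, aligned them with Bowtie2 to Gallus gallus 5.0 and deposited the raw count of each exon part. The counts were made with featureCounts 1.5.2 (Subread) from both strands alike, and only from read pairs with both ends mapped. A second deposited table holds the authors' normalized counts (a signal scaled by DEXSeq size factors), exon usage coefficients and log2 fold changes of exons they had called. Of that table only the identifiers were used, to apply the rule, and its comparison values were not used. Of the 4 lanes, the saline lanes were summed (chi-square per degree of freedom under 1.1) and 3 libraries entered the fits.

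Abundance and usage were tested with edgeR 4.0.16 (R 4.3.3; TMM, quasi-likelihood, diffSpliceDGE) on all features with at least 10 counts. DESeq2 1.42.0 served for its Wald test and for the model of DEXSeq. After a first version of that model, with the dispersion trend over a part and its other parts, had made no calls, it was replaced by a trend over the part alone, and a fit with each lane as a library was added. These changes were made after seeing the data, and all 3 versions are reported. Scripts were tested on simulated data with 200 changed features. There each feature had the same dispersion in all libraries, unlike the lanes here, so no number of calls above rests on the simulation. Tables were made in Python 3.11.15 with pandas 2.3.3, numpy 2.4.6, scipy 1.17.1 and matplotlib 3.10.9.

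The members, gene lists and tests were chosen with earlier results of these data known. Members named in the text are the 10 with the highest CPM per kilobase (at least 100 counts), the 2 highest and 2 lowest changes and the 3 highest and 3 lowest leading shares (at least 500 counts), the 3 with most parts and the 3 with most genes, and 2 called parts in each direction of usage. Alternatives were another scaling, other filters, each lane left out or taken as a library, other tests, the mitochondrial genome left out, and other definitions of members and short parts. p-values measure the spread between lanes, which may be technical.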

Additional observations from a re-analysis of the deposited data

How the results depend on the processing

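The comparison rests on 2 lanes a group, sequenced in a run for each group, and the spread on the 2 ethanol lanes, which the labels do not tie to pools. With an ethanol lane left out the spread rests on the saline lanes alone, which differed by little more than sampling noise. With each lane as a library it rests on the lanes of both groups. No paired analysis was possible because the labels number lanes of different runs and pair none of them. Parts under 10 counts were not tested, and the floor of 3 counts is 0.195 CPM in the shallowest lane and 0.143 in the deepest.

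Of 67 member calls at the identifier level, the count became 119 with each lane as a library and 30 with DESeq2's Wald test, and lay between 55 and 136 with a lane left out. Of 140 member calls in usage, it became 272 with each lane as a library, 85 with a minimum of 1 count, 15 in the model of DEXSeq, 88 in that model with each lane as a library (chosen after seeing the data), 0 in its first version, and 68 to 270 with a lane left out. Of 389 calls of member parts by abundance, it became 667 with library sizes alone, 125 with DESeq2's Wald test, and 0 to 300 with a lane left out; the cause was not tested. By DESeq2 size factors, with 10 counts in every library or without the mitochondrial genome, the 3 counts stayed within 1.5 times. With 10 counts in every library fewer parts were tested, so the share that passed was higher. In usage it was 11.6% of 1312 member parts, against 11.9% of all parts. By abundance it was 27.2% of 1333 member parts, against 26.5% of all parts. With each lane as a library, 50% of the member identifiers tested passed, against 42.8% of all identifiers. In usage, 10.7% of member parts passed with each lane as a library, against 9.68% of all parts. With a minimum of 1 count, 2.02% of member parts passed in usage, against 1.69% of all parts. Without saline replicate 1, 26.4% of member identifiers passed, against 25% of all identifiers. Without saline replicate 2 it was 23.5%, against 23.4%. By abundance, 12.7% of member parts passed without saline replicate 1, against 11.9% of all parts. Without saline replicate 2, 12.1% of member parts passed by abundance, against 11.7% of all parts.

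The median log2 change of members was -0.12, and 0.23 with library sizes alone. Those library sizes include the mitochondrial counts, whose share differs between the groups, and how far that share accounts for the shift was not tested. With a lane left out the median lay between -0.13 and -0.07. The difference between the first and the last stretch in usage was 0.31, became 0.34 with a minimum of 1 count, and lay between 0.29 and 0.36 with a lane left out. The ethanol minus saline share of member counts was -0.0938 percentage points off the mitochondrial genome and 0.164 over all counts, and lay between -0.154 and -0.0339 with a lane left out. The share of short parts was 27.6% under 75 bases and 67.4% under 150 bases. With no combined identifier off the mitochondrial genome, Z and W left out, there were 325 in place of 256. Of 195 values of the named identifiers and parts under alternatives, 172 kept their direction and their side of the threshold. With library sizes alone, 5 of the abundant members turned to log2 changes of 0.26, 0.16, 0.21, 0.22 and 0.21.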

Other observations

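The ethanol lanes differed from each other by more than the saline lanes over the combined identifiers as over all identifiers, a comparison made after the lanes had been seen. The chi-square per degree of freedom was 10.9 over 228 members and 5.61 over all 16879 identifiers off the mitochondrial genome with at least 10 counts in the 2 lanes. For the saline lanes it was 1.05 over 232 members and 1.04 over all. Chi-square grows with the number of counts, and members held more counts than other identifiers, so the 2 ethanol values are not set against each other. Among members with at least 500 counts in both ethanol lanes together (150), the median log2 ratio of ethanol replicate 2 over ethanol replicate 1, relative to their totals, was 0.07, and single ratios ran from -0.39 to 0.77, against -0.22 to 0.21 between the saline lanes. The SD of these ethanol ratios was 0.23 over the members and 0.20 over all 7360 identifiers with as many counts, which ran from -0.54 to 1.01.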
